A study of Mus musculus with 6 samples.

Results

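The genes described here carry adrenergic and cAMP signalling in heart muscle. They are the receptor genes Adrb1, Adra1a and Adra1b, the adenylyl cyclase genes Adcy5 and Adcy6, the phosphodiesterase genes Pde3a and Pde4d, the anchoring protein gene Akap6 and the kinase subunit gene Prkaca. These 9 were taken by symbol from a table of read counts for 24062 gene symbols, and all 9 were found. RNA-seq libraries were made from total RNA of both ventricles of male C57/Bl6N mice at 1 day of age (P1). The Med12cKO group held 3 libraries from mice that carried Cre recombinase (CrePOS) for a cardiac-specific knockout of Med12, and the CTL group held 3 libraries from Cre-negative mice (CreNEG). Med12 encodes a subunit of the kinase module of Mediator, a large regulator of transcription by RNA polymerase II. Only Med12cKO mice carried Cre, so Cre and loss of Med12 cannot be told apart. The promoter that drives Cre is not given in the sources used here, and whole ventricles also hold cells that a cardiac-specific Cre would leave untouched. Each library has a number of its own in its description, and the labels do not say what the number stands for. The p-values therefore speak only of the spread among these libraries, whatever part of it is technical.

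Noradrenaline and adrenaline act on heart muscle through beta and alpha1 receptors. Beta receptors couple to the G protein Gs and activate adenylyl cyclase, which makes cAMP. cAMP releases the catalytic subunits of protein kinase A, which phosphorylate calcium-handling and contractile proteins. Phosphodiesterases break cAMP down, and anchoring proteins hold the kinase and phosphodiesterases at set places in the cell. Alpha1 receptors couple to Gq and phospholipase C instead.

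The libraries held between 8453346 and 10911698 counts, and 13629 genes passed the filter on low counts. Values are counts scaled per library by edgeR's TMM method and given as CPM, and ± is the SD over n = 3 libraries per group. Values of single libraries are given for replicates 1, 2 and 3 of each group. Med12 measured 61.6, 84.96 and 41.3 CPM in Med12cKO and 103, 176 and 113 CPM in CTL. Every Med12cKO library lay below every CTL library, at a log2 fold change of -1.06 (edgeR adjusted p = 0.765; SE 0.30). DESeq2 called Med12 (adjusted p = 0.0246), and over 19 alternatives its adjusted p ranged up to 1.00. The heart muscle marker Tnnt2 lay between 5431 and 8810 CPM. The 10 markers of heart muscle summed to 37524, 45529 and 47443 CPM in Med12cKO and to 59309, 59971 and 46850 CPM in CTL. The groups overlapped, and edgeR called none of the 10. Their log2 fold changes had a median of -0.26 and were uneven, from -1.24 for Myh7 to -0.012 for Actn2. In bulk samples fewer cells of a type and less RNA per cell cannot be told apart. The 10 T cell and thymus markers summed to 791 CPM in Med12cKO replicate 1 and to 787 CPM in CTL replicate 3, against 3.43 to 5.41 CPM in the other libraries. The 12 skeletal muscle markers summed to 390.2, 261 and 277 CPM in Med12cKO and to 72.5, 102 and 68.5 CPM in CTL. Casq1 alone made up 192, 222 and 249 CPM of this in Med12cKO and 41.7, 65.7 and 32.04 CPM in CTL, and the other 11 summed to 198, 38.7 and 28.1 CPM in Med12cKO and 30.8, 35.9 and 36.4 CPM in CTL, with Med12cKO replicate 1 the only high library. The 10 lung epithelium markers summed to 98.6 CPM in Med12cKO replicate 2 and 79.8 CPM in CTL replicate 1, against 9.05 to 10.7 CPM in the other libraries. In each of these 4 lists, no marker was at 0 in all libraries. Their part in the values below was not tested, beyond the fits named there.

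None of the 9 genes passed a test of Med12cKO against CTL ventricles. Of the 8 that passed the filter, at a threshold of 0.05 on the adjusted p, edgeR called 0 in each direction, DESeq2 and limma-voom called 0, and 0 had an unadjusted edgeR p under 0.05. Over all genes tested edgeR called 0.022% (0.00734% higher and 0.0147% lower), DESeq2 0.508% and limma-voom 0.022%, and 3.78% had an unadjusted edgeR p under 0.05. Set beside these shares, 0 of 8 is no result about the set. The groups overlapped in all 9 genes, against 8.23% of genes tested whose groups did not. Log2 fold changes lay between -0.25 and 0.20, with a median of -0.050 against 0.0081 over all genes tested, and were negative for 5 of the 8 against 47.8% of all genes. Exact two-sided permutation tests on log2 CPM gave p between 0.2 and 0.9 for the 9 genes, where 3 against 3 libraries cannot go below 0.1.

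**Figure D1:**
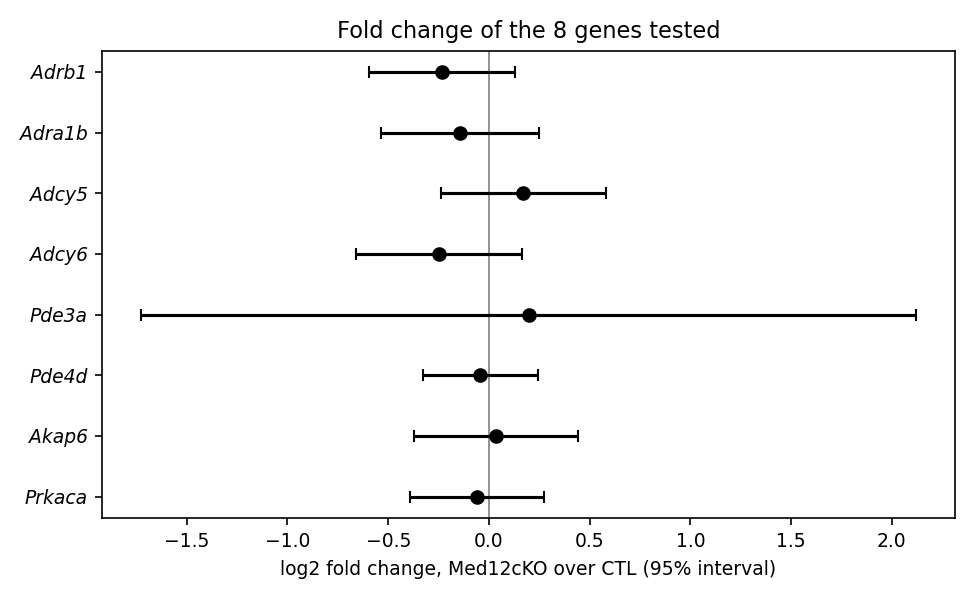
Log2 fold change of Med12cKO over CTL (x axis) for the 8 genes tested, with the 95% interval from edgeR's quasi-likelihood fit as the bar and 0 as the grey line. Every interval includes 0, and that of Pde3a is the widest, from -1.73 to 2.12.

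Sample descriptions open with the letter I or J, whose meaning is not given in the sources used here. The letter I covers Med12cKO replicates 1 and 3 and CTL replicates 2 and 3, and J covers the remaining library of each group, the libraries with lung transcripts. The log2 ratio of group means was -0.051 and -0.57 within I and within J for Adrb1, and 0.080 and -0.62 for Adra1b. For Adcy5 it was -0.040 and 0.55, and for Adcy6 -0.45 and 0.15. Pde3a had -1.08 and 2.05, Prkaca 0.078 and -0.34 and Pde4d -0.068 and 0.0074. Akap6 had -0.0032 and 0.088. Adrb1 alone of the 8 had the same sign within both letters, and J has no replicate behind its values.

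Among the receptors, Adra1b stood highest per kb of exon, Adrb1 below it, and Adra1a was near the limit of detection. Adrb1 (chromosome 19, 56722199 to 56733113, plus strand, GRCm38) encodes the beta1 receptor, the main beta receptor of cardiac myocytes. It measured 23.5, 23.1 and 27.1 CPM in Med12cKO and 34.2, 28.3 and 24.1 CPM in CTL. CTL replicate 1 was the highest library, and CTL replicate 3 lay among the Med12cKO values. The Med12cKO average, 24.6 ± 2.23 CPM, came to 85.1% of the CTL average, 28.9 ± 5.06 CPM. Its log2 fold change of -0.23 (edgeR adjusted p = 1.00; SE 0.16) had a 95% interval of 0.663-fold to 1.09-fold.

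Adra1b (chromosome 11, 43774606 to 43901210, minus strand) encodes the alpha1B receptor, which couples to Gq. Its level was 55.8, 46.7 and 70.4 CPM in Med12cKO and 71.7, 66.4 and 52.99 CPM in CTL. Med12cKO replicate 2 was the lowest library, and Med12cKO replicate 3 stood within the CTL values. Averages were 57.6 ± 11.96 CPM in Med12cKO and 63.7 ± 9.64 CPM in CTL. The log2 fold change was -0.14 (edgeR adjusted p = 1.00; SE 0.17), with a 95% interval of 0.689-fold to 1.19-fold. Adra1a (chromosome 14, 66635251 to 66771168, plus strand) encodes the alpha1A receptor. It had 5, 8 and 8 counts in Med12cKO and 3, 11 and 9 counts in CTL, or 0.738 ± 0.155 CPM in Med12cKO and 0.751 ± 0.364 CPM in CTL. The exact Poisson 95% interval, which covers counting error only, was 0.619 to 8.77 counts for CTL replicate 1 and 5.49 to 19.7 counts for CTL replicate 2. At this depth a small difference in Adra1a could not be told from counting error, and the size that could be was not tested.

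Of the receptors outside the set, Adra1d measured 4.55 ± 0.427 CPM in Med12cKO and 5.41 ± 0.302 CPM in CTL. Its groups did not overlap, and it did not pass the test (edgeR adjusted p = 1.00). Adra2b, an alpha2 receptor gene, measured 1.32 ± 0.543 CPM in Med12cKO and 1.61 ± 0.113 CPM in CTL. Adrb3, for the beta3 receptor known from fat tissue, had 2, 6 and 6 counts in Med12cKO and 2, 3 and 0 counts in CTL, too few to test. Within the family of 9 adrenergic receptor genes, Adra1b held 60.6% ± 4.41 in Med12cKO and 59.7% ± 1.33 in CTL of the counts per kb of exon. Adrb1 held 26.1% ± 1.48 in Med12cKO and 27.00% ± 1.300 in CTL. For both, the share differed by less than the spread between replicates.

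**Figure D2:**
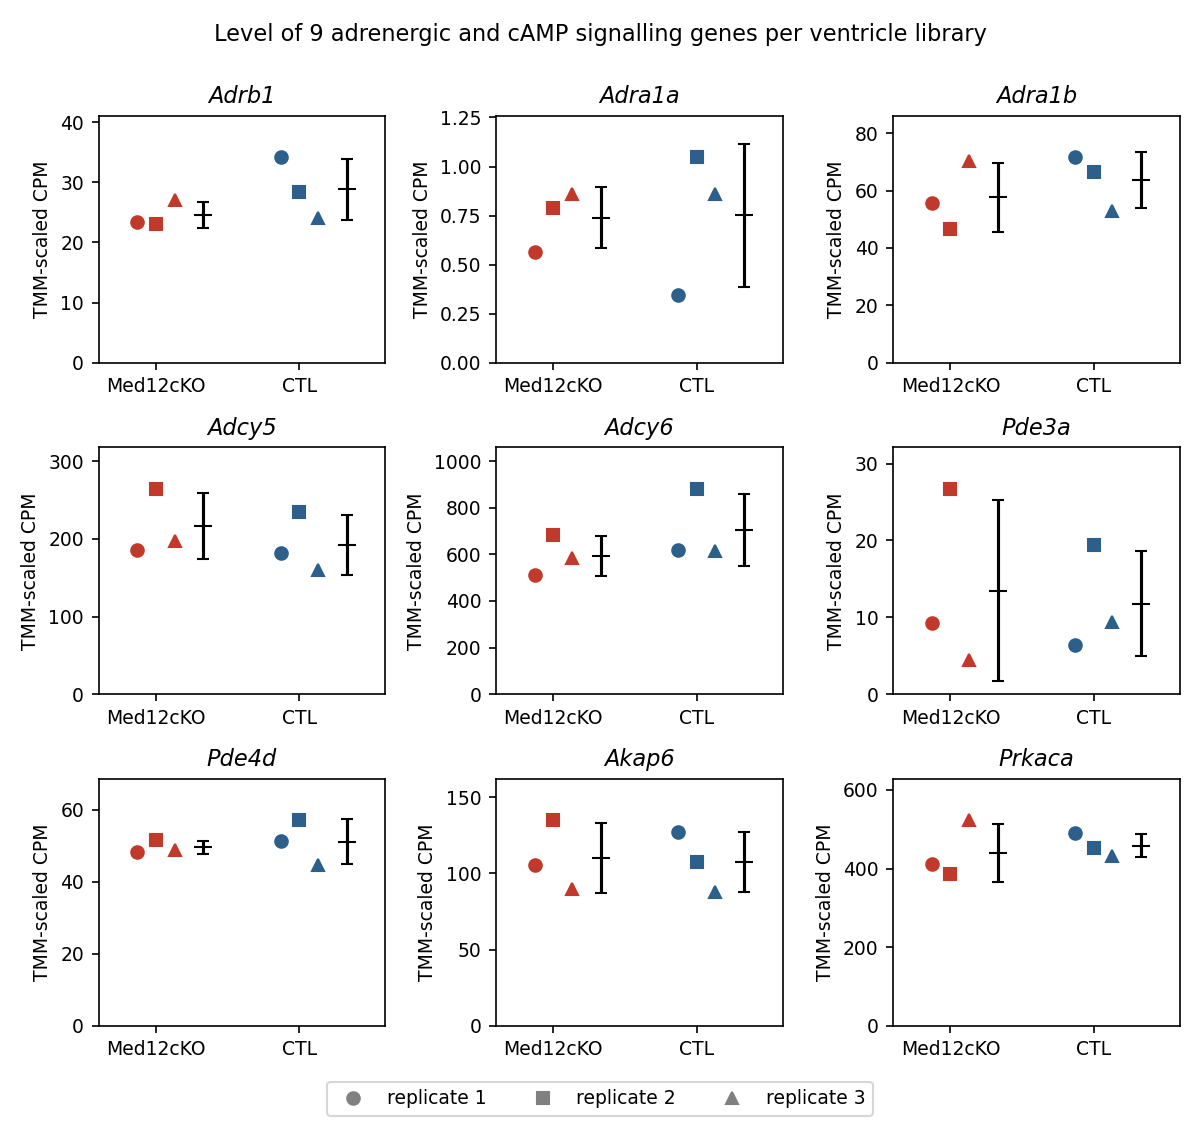
TMM-scaled CPM (y axis, from 0) of each of the 9 genes in the 3 Med12cKO libraries (red, left) and the 3 CTL libraries (blue, right), with the replicate number as the symbol and mean ± SD as the black bar. The groups overlap in every panel, and Pde3a ranges from 4.41 to 26.7 CPM.

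Adcy5 and Adcy6 encode the main adenylyl cyclases of heart muscle, which calcium inhibits. Adcy5 (chromosome 16, 35154877 to 35305738, plus strand) measured 186, 265 and 197 CPM in Med12cKO and 181, 235 and 159.8 CPM in CTL. Replicate 2 was the highest library of each group, and the groups overlapped. Averages were 216 ± 42.5 CPM in Med12cKO and 192 ± 38.5 CPM in CTL, and the log2 fold change was 0.17 (edgeR adjusted p = 1.00; SE 0.18), with a 95% interval of 0.847-fold to 1.497-fold. Adcy6 (chromosome 15, 98589973 to 98610076, minus strand) measured 510.5, 683 and 584 CPM in Med12cKO and 617, 882 and 614 CPM in CTL. CTL replicate 2 was the highest library, and Med12cKO replicate 2 stood above both other CTL libraries. Averages were 592 ± 86.7 CPM in Med12cKO and 704 ± 154 CPM in CTL, and the log2 fold change was -0.25 (edgeR adjusted p = 1.00; SE 0.18), with a 95% interval of 0.632-fold to 1.12-fold. An antisense model, Gm29331, shares 8.92% of the exon bases of Adcy6, and whether counting used strand is not given in the sources used here.

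The balance between these cyclases, compared as 1 of 6 ratios chosen after the counts were seen, did not pass its test. The ratio of Adcy5 to Adcy6, in counts per kb of exon within a library and so free of library scaling, was 0.345, 0.366 and 0.319 in Med12cKO and 0.277, 0.251 and 0.246 in CTL. Every Med12cKO library lay above every CTL library. The log2 ratio averaged -1.55 ± 0.10 in Med12cKO and -1.96 ± 0.094 in CTL, a difference of 0.41. An exact two-sided permutation test gave p = 0.1, the smallest that 3 against 3 libraries allow, and 0.6 after Benjamini-Hochberg adjustment over the 6 ratios. Ratios of other genes to Adcy6 had groups that did not overlap for 9.23% of genes tested, and ratios to Adcy5 for 6.1%. Separation by itself is therefore read as nothing particular to this pair. The size of the difference was not compared with that of other ratios. The difference lay between 0.36 and 0.46 when each library was left out in turn. It was 0.37 without the libraries with thymus transcripts, 0.41 with a length and GC correction and 0.42 in the letter I libraries. Groups apart in all 6 libraries stay apart in any subset of them, so these values speak of the size only.

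Across all 10 adenylyl cyclase genes, Adcy6 held 62.7% ± 1.33 in Med12cKO and 67.5% ± 1.301 in CTL of the counts per kb. Adcy5 held 21.5% ± 1.13 in Med12cKO and 17.4% ± 0.897 in CTL. Both shares had groups that did not overlap, Adcy6 lower and Adcy5 higher in Med12cKO, which restates the ratio. Adcy4 held 7.91% ± 0.761 in Med12cKO and 7.896% ± 0.539 in CTL, and Adcy9 3.58% ± 0.295 in Med12cKO and 3.71% ± 0.0454 in CTL. Adcy10, the soluble cyclase gene, had a count of 0 in all 6 libraries, and a count of 0 allows up to 3 counts, or 0.286 to 0.345 CPM.

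**Figure D3:**
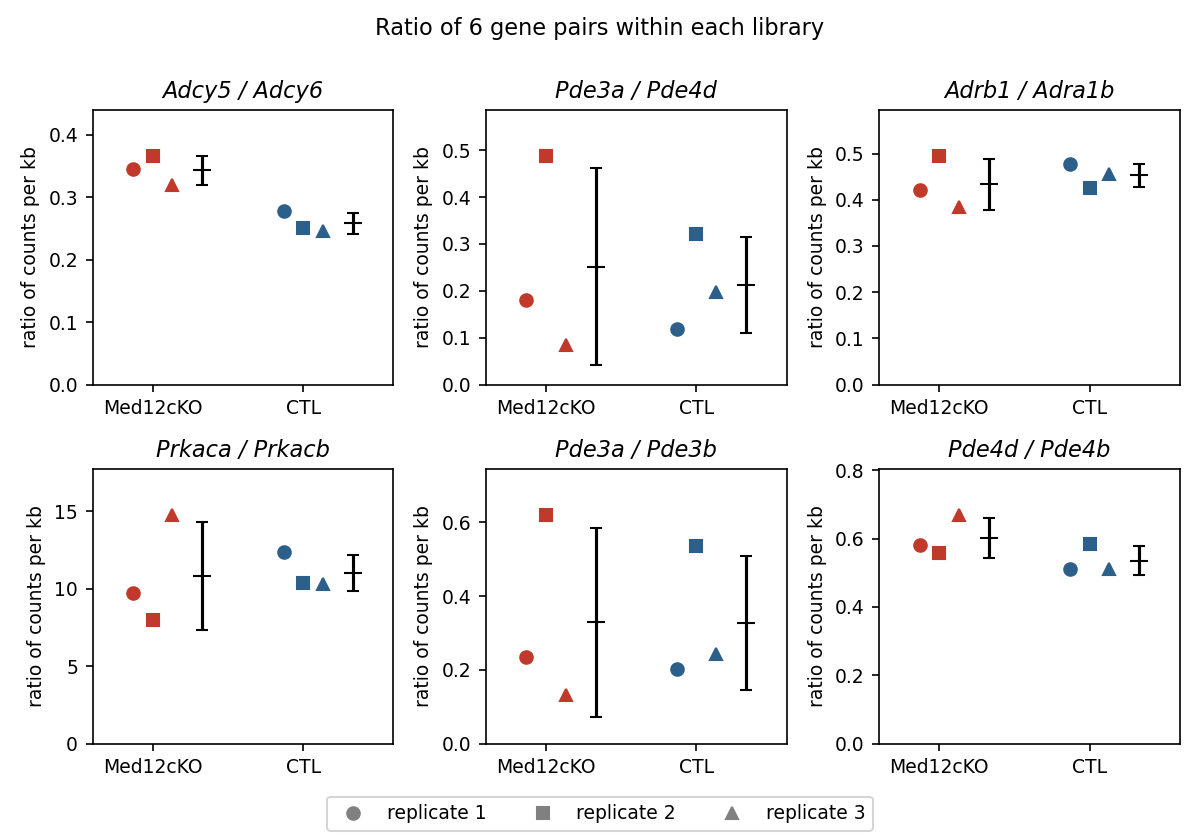
Ratio of counts per kb of exon between the genes of 6 pairs (y axis, from 0) in each Med12cKO library (red, left) and CTL library (blue, right), with the replicate number as the symbol and mean ± SD as the black bar. The groups are apart for Adcy5 over Adcy6 and overlap for the other 5 pairs.

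Pde3a and Pde4d encode cAMP phosphodiesterases of cardiac myocytes, and cGMP inhibits the product of Pde3a. Pde4d (chromosome 13, 108449948 to 109953461, plus strand) measured 48.3, 51.7 and 48.9 CPM in Med12cKO and 51.4, 57.2 and 44.7 CPM in CTL. All Med12cKO values lay inside the CTL range. Averages were 49.6 ± 1.84 CPM in Med12cKO and 51.1 ± 6.26 CPM in CTL, and the log2 fold change was -0.042 (edgeR adjusted p = 1.00; SE 0.13). Its 95% interval, 0.797-fold to 1.18-fold, was the narrowest of the 8 on the log scale.

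Pde3a (chromosome 6, 141249269 to 141507448, plus strand) varied more between libraries of a group than between groups. It measured 9.25, 26.7 and 4.41 CPM in Med12cKO and 6.44, 19.4 and 9.37 CPM in CTL. Replicate 2 was the highest library of both groups, although no pairing by number is given in the sources used here. Bmp10, a marker of atrial muscle, followed the same order, at 9.13, 30.1 and 3.98 CPM in Med12cKO and 7.83, 24.6 and 10.7 CPM in CTL. It was picked from 10 atrial markers after its values were seen. Kcnj3, another of them, was also highest in replicate 2 of both groups. Myl7, also of this list, measured 496, 609 and 432 CPM in Med12cKO and 1240, 1149 and 901 CPM in CTL. Unlike for Pde3a, every Med12cKO library of Myl7 lay below every CTL library. The 10 atrial markers together summed to 3515, 3623 and 5092 CPM in Med12cKO and 4789, 4943 and 3703 CPM in CTL, in another order, and the part of atrial tissue in the spread of Pde3a was not tested. The counts were 82, 271 and 41 in Med12cKO and 56, 204 and 98 in CTL. Exact Poisson 95% intervals were 23.7 to 30.1 CPM for Med12cKO replicate 2 and 3.17 to 5.99 CPM for Med12cKO replicate 3, so counting error alone did not span the difference between them. The log2 fold change was 0.20 (edgeR adjusted p = 1.00; SE 0.76), and the 95% interval of 0.302-fold to 4.35-fold spans values far below and far above 1. Within groups, the SD of log2 CPM was 1.07, above that of 97.2% of 1811 genes within 0.5 log2 units of its level. The same percentile was 31.5% for Pde4d among 2820 genes. With a length and GC correction the SD of Pde3a was 0.94, against 1.09 without it and without the added prior count. The log2 fold change was -1.06 in the letter I libraries, -0.79 without Med12cKO replicate 2 and 0.77 without CTL replicate 2. An antisense model, Gm28523, shares 5.82% of its exon bases.

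Within the family of 18 phosphodiesterase genes, Pde2a held the highest share of counts per kb, 23.2% ± 1.695 in Med12cKO and 25.4% ± 1.14 in CTL. Pde4d held 6.25% ± 0.243 in Med12cKO and 6.41% ± 0.5600 in CTL, and Pde3a 1.54% ± 1.24 in Med12cKO and 1.37% ± 0.731 in CTL. Pde1c held 7.23% ± 0.944 in Med12cKO and 8.295% ± 0.4705 in CTL. In all 4, the groups overlapped. Pde4b held 10.4% ± 0.595 in Med12cKO and 11.97% ± 0.843 in CTL, with every Med12cKO library below every CTL library. Pde9a held 7.54% ± 1.21 in Med12cKO and 4.99% ± 0.418 in CTL, with every Med12cKO library above. Both shares were picked after their values were seen, and each had an exact two-sided permutation p of 0.1, the smallest possible. Gm45837, a model on the same strand, shares 64.3% of the exon bases of Pde2a, whose counts are uncertain to that extent. The ratio of Pde4d to its paralog Pde4b was 0.5800, 0.559 and 0.669 in Med12cKO and 0.513, 0.584 and 0.511 in CTL, with overlapping groups. The ratios of Pde3a to Pde4d, Pde3a to Pde3b, Adrb1 to Adra1b and Prkaca to Prkacb also overlapped, and the exact two-sided permutation p of these 5 ratios lay between 0.3 and 1. Ratios of all genes tested to Pde4b did not overlap for 17.9%, to Pde4d for 6.37%, to Pde3b for 6.85%, to Adra1b for 5.53% and to Prkacb for 5.24%.

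**Figure D4:**
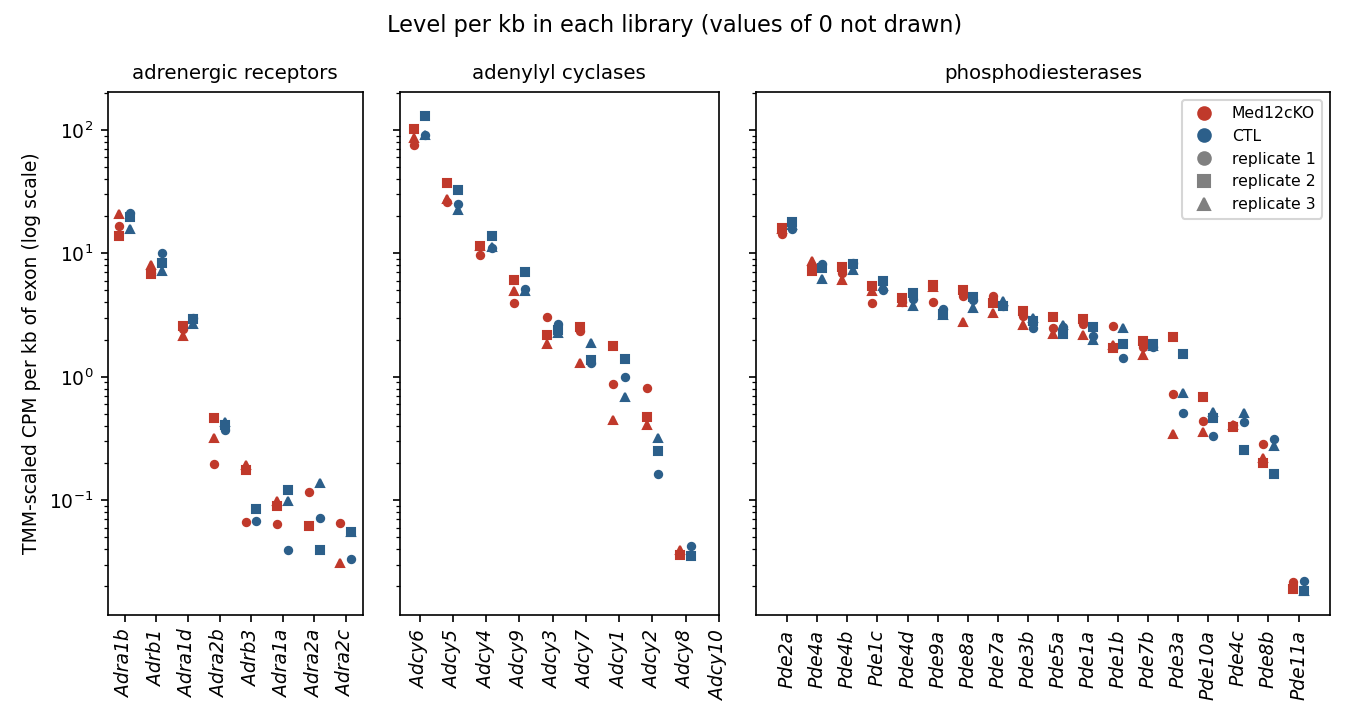
TMM-scaled CPM per kb of exon (y axis, log scale) of adrenergic receptor, adenylyl cyclase and phosphodiesterase genes reported here, each family ordered by its mean level, with Med12cKO libraries in red to the left of CTL libraries in blue and the replicate number as the symbol; values of 0 are not drawn. Adra1b, Adcy6 and Pde2a stand highest in their families.

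Akap6 (chromosome 12, 52699383 to 53155599, plus strand) encodes mAKAP, a scaffold of the nuclear envelope of myocytes that binds protein kinase A. It measured 105, 135 and 90.1 CPM in Med12cKO and 127, 108 and 87.99 CPM in CTL. Replicate 2 was highest in Med12cKO and replicate 1 in CTL, and the groups overlapped. Averages were 110.2 ± 22.9 CPM in Med12cKO and 108 ± 19.5 CPM in CTL, and the log2 fold change was 0.035 (edgeR adjusted p = 1.00; SE 0.18), with a 95% interval of 0.773-fold to 1.36-fold. Prkaca (chromosome 8, 83972993 to 83996443, plus strand) encodes the alpha catalytic subunit of protein kinase A. Its level was 410.2, 386 and 523 CPM in Med12cKO and 489, 453 and 432 CPM in CTL. Med12cKO held both the lowest and the highest library. Averages were 439.7 ± 73.4 CPM in Med12cKO and 458 ± 29.3 CPM in CTL, and the log2 fold change was -0.059 (edgeR adjusted p = 1.00; SE 0.15), with a 95% interval of 0.763-fold to 1.21-fold. Of the counts per kb of the catalytic subunit genes Prkaca and Prkacb, Prkaca held 91.1% ± 2.41 in Med12cKO and 91.6% ± 0.776 in CTL.

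Set against each other per kb of exon, Prkaca stood highest of the 9 genes, at 177 ± 29.5 CPM per kb in Med12cKO and 184 ± 11.8 in CTL. Adcy6 followed at 87.4 ± 12.8 CPM per kb in Med12cKO and 104 ± 22.7 in CTL, and then Adcy5 at 30.1 ± 5.91 CPM per kb in Med12cKO and 26.7 ± 5.36 in CTL. Adra1b came next, at 17.04 ± 3.54 CPM per kb in Med12cKO and 18.8 ± 2.85 in CTL. Adrb1, at 7.26 ± 0.659 CPM per kb in Med12cKO and 8.53 ± 1.497 in CTL, and Akap6, at 7.42 ± 1.54 CPM per kb in Med12cKO and 7.25 ± 1.32 in CTL, had overlapping library values and could not be ordered. Pde4d was lower, at 4.13 ± 0.153 CPM per kb in Med12cKO and 4.26 ± 0.521 in CTL. Pde3a, at 1.06 ± 0.922 CPM per kb in Med12cKO and 0.923 ± 0.535 in CTL, and Adra1a, at 0.0846 ± 0.0178 CPM per kb in Med12cKO and 0.0861 ± 0.0417 in CTL, were the lowest. Apart from Adrb1 and Akap6, neighbours in this order did not overlap over the 6 libraries. Exon length is the union of all annotated exons, so a gene with many alternative starts, such as Pde4d, is set low by this scale. Among genes tested that have a length, Prkaca lay at percentile 98.6 and Adrb1 at percentile 55.1.

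Promoter windows, 250 bases before to 50 after a RefSeq start on GRCm38.p6, were at hand for 6 of the 9 genes. Those of a receptor, a cyclase and the kinase (the first of its 2 windows) are printed to show the motif that the transcription factor CREB binds at the end of this pathway. Letters run 5′ to 3′ on the strand of the gene, and capitals mark the cAMP response element core TGACG and the GC box GGGCGG on either strand.
Adrb1, chr19:56721867-56722166, plus strand: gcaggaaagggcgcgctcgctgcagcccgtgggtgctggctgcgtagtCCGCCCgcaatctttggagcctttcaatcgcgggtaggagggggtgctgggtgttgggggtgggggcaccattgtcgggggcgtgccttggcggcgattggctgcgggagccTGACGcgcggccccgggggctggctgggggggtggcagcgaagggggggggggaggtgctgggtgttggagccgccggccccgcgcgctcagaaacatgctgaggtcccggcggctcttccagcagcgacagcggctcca
Adcy5, chr16:35154614-35154913, plus strand: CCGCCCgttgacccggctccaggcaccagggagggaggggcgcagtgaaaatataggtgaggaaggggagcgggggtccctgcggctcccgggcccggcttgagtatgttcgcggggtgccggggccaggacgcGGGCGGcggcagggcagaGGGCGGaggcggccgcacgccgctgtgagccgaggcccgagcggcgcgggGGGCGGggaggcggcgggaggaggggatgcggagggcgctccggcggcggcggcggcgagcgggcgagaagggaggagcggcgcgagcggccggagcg
Prkaca, chr8:83972728-83973027, plus strand: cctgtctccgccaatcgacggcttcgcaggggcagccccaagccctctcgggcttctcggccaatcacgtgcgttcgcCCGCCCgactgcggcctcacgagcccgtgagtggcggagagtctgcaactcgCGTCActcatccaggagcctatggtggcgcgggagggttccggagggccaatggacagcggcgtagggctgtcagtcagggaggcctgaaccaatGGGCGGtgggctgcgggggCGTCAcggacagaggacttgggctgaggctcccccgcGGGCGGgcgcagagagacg
All 3 windows were rich in G and C, at 72.3% for Adrb1, 79% for Adcy5 and 69.7% for Prkaca, against a median of 52.7% over 32851 windows. The core TGACG matched 1 time in Adrb1, 2 times in Prkaca and 0 times in Adcy5, and matches 20.8% of all windows. The GC box matched 1 time in Adrb1, 3 times in Prkaca and 4 times in Adcy5, and matches 35.7% of all windows. The full element TGACGTCA, which holds the core on both strands, matched 0 of the 3 and matches 1.79% of all windows. Prkaca has a second window, at a later start, with 51.3% G and C and 0 matches of either motif. Adra1b also has 2 windows, with 42.3% and 71.3% G and C, with 0 and 2 GC boxes and no core. The data do not separate the starts of a gene. The windows of Pde4d and Akap6, with 39.7% and 43.7% G and C, held neither the GC box nor the core. A match describes these letters and does not show a bound site.

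The gene closest in profile to a member over the 6 libraries was found by the root mean square difference of log2 CPM after centring each gene on its own mean. Pde3a was closest to Tenm4 (0.0632; median 0.904), where the median is over all genes tested. Tenm4 measured 5.64, 15.7 and 2.69 CPM in Med12cKO and 4.03, 13.1 and 6.03 CPM in CTL, with replicate 2 highest in both groups, as for Pde3a. Prkaca was closest to Ddr1 (0.0168; median 0.232), Adrb1 to Isca1 (0.0395; median 0.265) and Adra1b to Tbcc (0.0374; median 0.289). Adcy6 was closest to Pam (0.0482; median 0.306), Akap6 to Slc29a4 (0.0493; median 0.301) and Pde4d to Tox3 (0.03800; median 0.213). Slc29a4 had only 12, 16 and 10 counts in Med12cKO and 14, 14 and 11 counts in CTL, so counting error limits its match. With 6 libraries and 13629 genes, close profiles are a description only.

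The rest of the pathway was read from lists of genes by role, with the 9 genes left out. Of 133 genes listed, 130 were found and 118 tested. Of these edgeR called 0 higher and 0 lower, and limma-voom called 0. DESeq2, which called 0.508% of all genes, called 3, all lower in Med12cKO, namely Ddc, Pln and Ryr2. At an unadjusted edgeR p under 0.05 there were 8 genes (6.78%, against 3.78% of all genes tested). Of these, 5 had a positive and 3 a negative log2 fold change. Groups did not overlap in 12 genes (10.2%), with Med12cKO above CTL in 5 and below in 7, where 4.59% of all genes tested lay above and 3.64% below. The median log2 fold change was 0.0018. Signs by role, given below, stand beside 7110 positive and 6519 negative log2 fold changes among all 13629 genes tested. Genes of a role were measured in the same 6 libraries, so these sign counts are a description only.

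Ddc (chromosome 11, 11814101 to 11898144, minus strand), for the decarboxylase that makes dopamine in catecholamine synthesis, had the lowest edgeR adjusted p of these lists, while DESeq2 gave lower ones for Pln and Ryr2. It measured 92.4, 78.8 and 135 CPM in Med12cKO and 204, 236 and 179 CPM in CTL. Every Med12cKO library was below every CTL library. The log2 fold change was -1.01 (edgeR adjusted p = 0.269; SE 0.20). By DESeq2 its adjusted p was 3.8e-04, and over 19 alternatives it ranged up to 1.00. Dbh, for the enzyme that turns dopamine into noradrenaline, measured 3.61 ± 0.511 CPM in Med12cKO and 5.21 ± 0.951 CPM in CTL. Th, for the first enzyme of the route, had 5, 12 and 1 counts in Med12cKO and 14, 10 and 3 counts in CTL.

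Among 10 substrates of protein kinase A in heart muscle, 9 had a negative log2 fold change (median -0.27, against 0.0081 over all genes), beside the marker sums of heart muscle given above. At least Pln is in both lists, so those sums are not separate from these values. Pln, for the inhibitor of the sarcoplasmic calcium pump, measured 2829 ± 308 CPM in Med12cKO and 4790 ± 296 CPM in CTL. Its log2 fold change was -0.76 (edgeR adjusted p = 0.3002; SE 0.16), with a DESeq2 adjusted p of 4.0e-07. Gene models on the opposite strand share 64.7% of its exon bases. Ryr2, for the calcium release channel, measured 758 ± 124 CPM in Med12cKO and 1299 ± 138 CPM in CTL, at a log2 fold change of -0.78 (edgeR adjusted p = 0.3002; SE 0.16) and a DESeq2 adjusted p of 1.7e-04. Mybpc3, for cardiac myosin binding protein C, measured 3781 ± 340.2 CPM in Med12cKO and 4014 ± 508 CPM in CTL, with overlapping groups.

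No G protein, receptor kinase or other cyclase-coupled receptor was called. All 10 G protein genes were tested, 8 with a positive log2 fold change (median 0.11). Gnas, for the alpha subunit of Gs, measured 1779 ± 250.3 CPM in Med12cKO and 1603 ± 149.8 CPM in CTL, and Gnai2, for an inhibitory alpha subunit, 491 ± 71.3 CPM in Med12cKO and 462 ± 44.5 CPM in CTL. The receptor kinase gene Adrbk1 (GRK2) measured 105 ± 21.03 CPM in Med12cKO and 111 ± 27.9 CPM in CTL, and the arrestin gene Arrb1 88.2 ± 22.00 CPM in Med12cKO and 95.6 ± 31.03 CPM in CTL. Groups overlapped in all 4. Models on the opposite strand share 22.00% of the exon bases of Gnas. Calcrl, for a receptor of adrenomedullin and CGRP, measured 52.5 ± 12.6 CPM in Med12cKO and 59.6 ± 3.96 CPM in CTL, and the adenosine receptor gene Adora1 42.6 ± 5.29 CPM in Med12cKO and 35.3 ± 10.7 CPM in CTL.

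Of 8 genes for subunits and inhibitors of protein kinase A, 6 had a positive log2 fold change (median 0.25) and none was called by edgeR, DESeq2 or limma-voom. The regulatory subunit gene Prkar1a measured 1046 ± 57.6 CPM in Med12cKO and 880.2 ± 96.5 CPM in CTL, and the inhibitor gene Pkig 154 ± 28.4 CPM in Med12cKO and 176 ± 18.2 CPM in CTL. Of 12 anchoring protein genes, 8 had a negative log2 fold change (median -0.049). Pde4dip, for a protein that binds PDE4D, measured 555 ± 209 CPM in Med12cKO and 604 ± 188 CPM in CTL, and Akap2 322 ± 112 CPM in Med12cKO and 287 ± 58.4 CPM in CTL. Pakap, on the same strand, shares 84.4% of the exon bases of Akap2, whose counts are uncertain to that extent. The GTPase genes Rap1b and Rap1a, which act below the cAMP sensor EPAC, measured 173 ± 8.69 CPM in Med12cKO and 155 ± 16.6 CPM in CTL, and 66.4 ± 5.55 CPM in Med12cKO and 63.3 ± 5.74 CPM in CTL. Groups overlapped in each of these 6 genes.

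Effectors of alpha1 receptors had 6 of 7 genes at a positive log2 fold change (median 0.18). Prkcd, a protein kinase C gene, measured 68.6 ± 6.42 CPM in Med12cKO and 51.3 ± 5.85 CPM in CTL with groups apart, and did not pass (edgeR adjusted p = 0.783). The phospholipase gene Plcb3 measured 67.2 ± 8.14 CPM in Med12cKO and 57.7 ± 1.98 CPM in CTL. The phosphatase genes Ppp1cb and Ppp1ca measured 552 ± 31.2 CPM in Med12cKO and 567 ± 33.9 CPM in CTL, and 449.8 ± 78.8 CPM in Med12cKO and 449 ± 18.3 CPM in CTL. None of these 4 genes was called. Creb1 and Atf1, for transcription factors that bind the cAMP response element, measured 70.4 ± 11.4 CPM in Med12cKO and 66.8 ± 5.97 CPM in CTL, and 51.00 ± 2.03 CPM in Med12cKO and 56.2 ± 3.05 CPM in CTL. Of the genes that cAMP can induce, Ppargc1a measured 124 ± 19.6 CPM in Med12cKO and 152 ± 13.1 CPM in CTL, and the clock gene Per1 96.2 ± 34.7 CPM in Med12cKO and 87.2 ± 17.4 CPM in CTL.

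**Figure D5:**
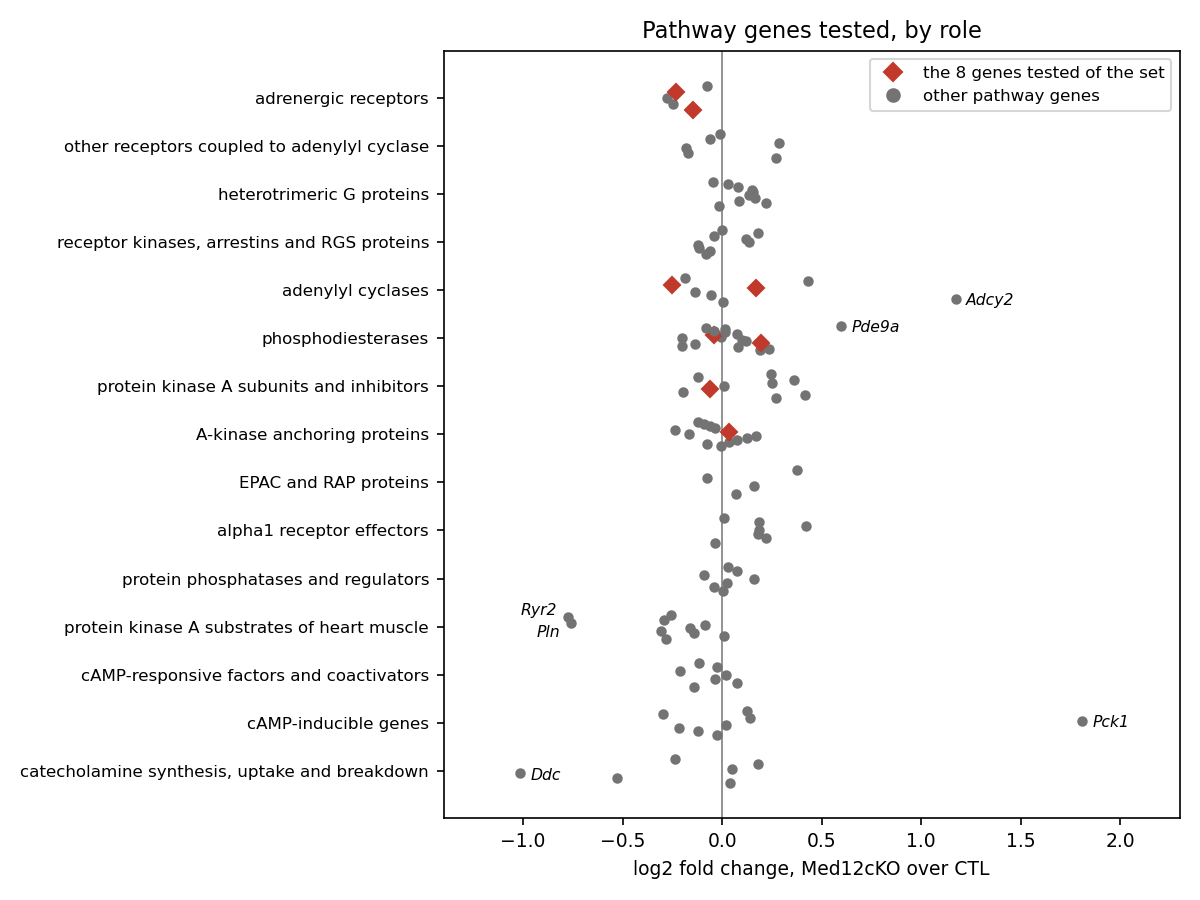
Log2 fold change of Med12cKO over CTL (x axis) for every pathway gene tested, grouped by role (y axis), with the 8 tested genes of the set as red diamonds and the other 118 as grey circles; the grey line marks 0 and genes more than 0.55 from 0 are named. The diamonds lie between -0.25 and 0.20, and the genes named on the plot are outside the set.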

How the data were processed

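Total RNA of ventricles was sequenced in 6 libraries. The table deposited by the authors holds raw counts per gene symbol. The submitters' processing notes name TopHat2 2.0.0, featureCounts, edgeR 3.14.0 and build GRCm38 (mm10). Annotation and strand setting are not given in the sources used here. Columns were matched to samples by title or description.

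Counts were tested with edgeR 4.0.16 in R 4.3.3 (quasi-likelihood F test, robust, TMM). Genes passed filterByExpr at min.count 10 and min.total.count 15, which left out Adra1a. Benjamini-Hochberg adjustment ran over 13629 genes, with a threshold of 0.05. SE is the size of the log2 fold change over the root of F. Alternatives were DESeq2 1.42.0, limma-voom (limma 3.58.1), other scalings and filters, blocks for replicate or letter, a length and GC offset (splines with 4 degrees of freedom), and left-out libraries. A library counted as holding thymus transcripts where the thymus markers averaged 10 CPM or more. GENCODE M21 (GRCm38) gave gene positions, exon length and GC, with a length for 99.4% of genes tested. Members, lists and ratios were chosen with earlier results of these data known.

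Genes named were the 9 of the set, Med12, Adrb3, the 2 genes of highest mean CPM in each role, called genes and the closest profiles, of which a few are not reported here. Ryr2, Dbh, Th, Adcy10, the cell type markers and the paralogs in ratios were named after their values were seen. Deviations from group means correlated at -0.31, 0.44 and -0.35 between libraries of the same number. The highest value, 0.71, was between Med12cKO replicate 1 and CTL replicate 3, the libraries with thymus transcripts. These values gave no ground to pair libraries by number, and they cannot settle how the samples were taken. Library pairs within a group differed beyond sampling noise (lowest chi-square 14.5 per degree of freedom). The scripts were tested on simulated data. Counting intervals and limits cover counting error only.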

Additional observations from a re-analysis of the deposited data

How the results depend on the processing

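None of the 8 genes tested was called in any of the 19 alternatives, 0 had an unadjusted p under 0.05, and the lowest adjusted p was 0.677. Their median log2 fold change stayed between -0.12 and -0.0083. Adrb1 and Adcy6 were negative in each alternative. DESeq2 called 65 genes over all in place of 3 and 3 pathway genes in place of 0, and it called Med12 (-1.06, adjusted p = 0.0246). In the letter I libraries 1 gene was called, and the log2 fold change turned sign for Adra1b (0.092), Adcy5 (-0.028), Pde3a (-1.06) and Prkaca (0.088). That of Pde3a also turned sign in limma-voom (-0.034) and with the letter as a block (-0.089). With the replicate block 2 genes were called over all and 0 of the set, and Pde3a stood at -0.0015, or at -0.017 with the length and GC offset too. Akap6 was -0.066 without the libraries with thymus transcripts. The cause was not tested. With each library left out in turn, 1 to 3 genes were called over all (1 without Med12cKO replicate 3). The log2 fold change then ran from -0.0025 to 0.34 for Adcy5, -0.79 to 0.77 for Pde3a, -0.13 to 0.048 for Pde4d, -0.14 to 0.17 for Akap6 and -0.21 to 0.026 for Prkaca. Depth limits Adra1a, which had at most 11 counts in a library.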

Other observations

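Of the pathway genes with an unadjusted edgeR p under 0.05, 5 had a positive log2 fold change in Med12cKO over CTL. Besides Prkcd these were the cyclase gene Adcy2, the cGMP phosphodiesterase gene Pde9a, the regulatory subunit gene Prkar1b and Pck1, all named after their values were seen. Adcy2 had 30, 20 and 16 counts in Med12cKO and 6, 11 and 14 counts in CTL (log2 fold change 1.17, edgeR adjusted p = 0.966). Pde9a measured 14.2, 19.7 and 19.05 CPM in Med12cKO and 12.4, 11.3 and 11.3 CPM in CTL (log2 fold change 0.60, edgeR adjusted p = 0.729). Prkar1b measured 14.4, 14.01 and 14.96 CPM in Med12cKO and 10.8, 10.9 and 12.1 CPM in CTL (log2 fold change 0.36, edgeR adjusted p = 1.00). In these 3 genes every Med12cKO library lay above every CTL library, as in 4.59% of all genes tested. They were picked by their p in these same libraries, so the separation adds no support. Pck1, for an enzyme of glucose synthesis, measured 6.77, 5.53 and 0.646 CPM in Med12cKO and 1.38, 0.762 and 1.53 CPM in CTL. Its Med12cKO replicate 3 lay below every CTL library. The fat markers Adipoq and Plin1 were likewise high in Med12cKO replicates 1 and 2, Adipoq at 7.67, 5.53 and 1.08 CPM in Med12cKO and 1.61, 0.0953 and 1.91 CPM in CTL and Plin1 at 6.09, 5.13 and 0.646 CPM in Med12cKO and 1.496, 0.286 and 0.765 CPM in CTL. The 10 adipose markers together went in another order, at 656, 682 and 899 CPM in Med12cKO and 890, 736 and 654 CPM in CTL. Of this sum Fabp4 made up 451, 496 and 616 CPM in Med12cKO and 647, 513 and 439 CPM in CTL. Adipoq and Plin1 were picked from the list after their values were seen. The part of fat tissue in the values of Pck1 was not tested. None of the 5 was called by edgeR, DESeq2 or limma-voom.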
